A study of Mus musculus with 24 samples.

Results

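Newly made RNA of pachytene spermatocytes was compared with newly made RNA of leptotene spermatocytes, gene by gene, as the share that each gene took of its library. Of 24 libraries in the series, 8 nascent RNA libraries entered the comparison, 4 labelled leptotene and 4 labelled pachytene, and they were chosen by stage and assay labels alone. All came from testes of wild-type NMRI mice whose spermatogenesis had been synchronised with WIN18,446, which blocks the making of retinoic acid, and then with retinoic acid itself. At 24 days after birth each mouse received 2 mg of 5-ethynyl uridine, a uridine analogue that is built into RNA as it is transcribed, and 3 h later the cells were sorted by DNA content. Both stages therefore share the strain, age, synchronisation and labelling. The leptotene libraries came from 3 animals, with libraries 1 and 2 from the same animal, and the pachytene libraries came from 2 animals, with libraries 1 and 3 from one and libraries 2 and 4 from the other. One animal gave leptotene library 3 as well as pachytene libraries 2 and 4. Labelled RNA was captured and sequenced without removal of ribosomal RNA. The gene values are FPKM (fragments per length of gene and per mapped fragment of the library) from the uncorrected table; spike-in rows were dropped and every library was rescaled to the same sum, so a value is a level per length within a fixed total, and a rise or fall is one of composition. Total output per cell was not measured by these values, and in bulk samples fewer cells of a type and less RNA per cell cannot be told apart.

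Leptotene is the step of the first meiotic prophase in which programmed DNA breaks are made and the chromosome axes form. By pachytene the homologous chromosomes are fully synapsed, the unsynapsed X and Y chromosomes lie in the transcriptionally silenced sex body, and genes for later sperm formation are switched on. A-MYB, encoded by Mybl1, is known in the mouse as a driver of pachytene genes, among them those of the piRNA pathway, which silences transposons and makes the abundant pachytene piRNAs.

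Promoters are shown first because they let a reader see the letters that are counted further on. The 4 windows run from 250 bases before to 50 bases after the transcript start, 300 bases each, 5′ to 3′ on the gene's strand, from RefSeq promoters of GRCm38.p6. Capitals mark TAACNG or its reverse complement CNGTTA, the letters of a MYB-family motif. Piwil1, Tdrd5 and Spata4 rose in pachytene and Dmc1 fell. Piwil1 lies at chr5:128735996-128736295 on the plus strand, Tdrd5 at chr1:156303299-156303598 on the minus strand, Spata4 at chr8:54600531-54600830 on the plus strand, and Dmc1 at chr15:79605060-79605359 on the minus strand.
Piwil1: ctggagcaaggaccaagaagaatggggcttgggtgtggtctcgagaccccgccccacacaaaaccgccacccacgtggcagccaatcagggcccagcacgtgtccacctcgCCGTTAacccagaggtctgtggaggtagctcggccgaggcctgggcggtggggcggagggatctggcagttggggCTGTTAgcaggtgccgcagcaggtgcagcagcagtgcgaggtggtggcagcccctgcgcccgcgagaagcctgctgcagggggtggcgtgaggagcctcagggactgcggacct
Tdrd5: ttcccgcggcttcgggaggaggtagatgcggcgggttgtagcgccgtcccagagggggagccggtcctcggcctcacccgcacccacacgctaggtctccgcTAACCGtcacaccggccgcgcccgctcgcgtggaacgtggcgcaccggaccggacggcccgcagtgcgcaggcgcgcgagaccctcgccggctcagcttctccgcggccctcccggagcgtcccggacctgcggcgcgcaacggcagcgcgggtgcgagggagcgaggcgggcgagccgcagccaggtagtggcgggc
Spata4: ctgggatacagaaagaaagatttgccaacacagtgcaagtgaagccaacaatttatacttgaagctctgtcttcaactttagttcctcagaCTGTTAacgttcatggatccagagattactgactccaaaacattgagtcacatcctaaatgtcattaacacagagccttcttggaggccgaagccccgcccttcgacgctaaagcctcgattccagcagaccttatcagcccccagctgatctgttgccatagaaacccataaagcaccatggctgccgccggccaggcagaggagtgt
Dmc1: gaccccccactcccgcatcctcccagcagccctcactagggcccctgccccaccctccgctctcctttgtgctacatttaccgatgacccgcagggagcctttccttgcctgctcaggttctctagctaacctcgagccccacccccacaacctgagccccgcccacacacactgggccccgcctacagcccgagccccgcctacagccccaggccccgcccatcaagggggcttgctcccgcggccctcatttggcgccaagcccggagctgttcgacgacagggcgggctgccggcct

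Leptotene library 2 and pachytene library 3 stood apart from the other libraries of their labelled stage. Spearman correlations across genes, which are not independent replicates, were 0.77 to 0.91 among leptotene libraries 1, 3 and 4 and 0.88 to 0.91 among pachytene libraries 1, 2 and 4. The library labelled leptotene 2 correlated at 0.68 to 0.84 with the pachytene libraries and at 0.55 to 0.56 with the other leptotene libraries. Pachytene library 3 correlated at 0.80 to 0.82 with its own stage and at 0.36 to 0.39 with leptotene libraries 1, 3 and 4, against 0.14 to 0.31 for the other pairs across stages. With leptotene library 2 it correlated at 0.835, above its values with its own stage. Leptotene library 3 correlated at 0.86 to 0.91 with the 3 spermatogonia libraries, above its 0.773 and 0.778 with leptotene libraries 1 and 4. Leptotene libraries 1 and 4 correlated at 0.912 with each other. Summed over 6 pachytene markers, the level was 45.8, 16.1 and 34.0 in leptotene libraries 1, 3 and 4, 417 in leptotene library 2, and 656, 634, 226 and 642 in pachytene libraries 1 to 4. Over 5 leptotene markers it was 168, 72.2, 67.8 and 129 in leptotene libraries 1 to 4 and 13.1, 14.9, 56.6 and 12.5 in pachytene libraries 1 to 4. Round spermatid markers summed to 0.80 to 5.35 in all 8 libraries, and Tnp1, a defining transition protein of spermatids, was listed at 0 in all of them. The blood and macrophage list summed to 0.60 to 4.36 with none of 12 markers tested, the Leydig list to 2.29 to 6.72 with 2 of 10 tested, and the Sertoli list to 6.84 to 11.97 in leptotene and 1.98 to 5.19 in pachytene with 3 of 18 tested. Counts are given with and without leptotene library 2, and a single gene's change is given without it where the fold moved by more than 1.5 times or the call changed; whether that library or pachytene library 3 holds cells of the other stage was not tested. The rescaled sum was dominated by 5 rows of ribosomal and other structural RNA, which held 58.2% to 72.2% of it, and 9390 to 10411 genes had a level of at least 1.

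Of 13360 genes tested over all 8 libraries, 2929 (21.9%) were higher and 2297 (17.2%) lower in pachytene (39.1% in either direction) at an adjusted p below 0.05 (limma on log2 values with a pseudocount of 1, Benjamini-Hochberg, 3 against 2 animals). Without leptotene library 2 the counts were 3433 (26.1%) higher and 2728 (20.7%) lower of 13176 genes, 46.8% in either direction. In both fits 2893 genes were higher, 2224 were lower and 0 were called in opposite directions. Large changes were mostly rises, since 1147 genes were called higher by at least 4-fold against 540 lower, and 167 higher by at least 16-fold against 4 lower. Without leptotene library 2 those counts were 1393 against 727 and 266 against 11. The calls rest on few animals: with all other libraries, 0 genes were called in either direction without leptotene library 1, where library 2 alone stands for its animal, and 0 without either pachytene animal, where the lone animal is assumed to vary like the others. Without pachytene library 1, 1384 were called lower. Once leptotene library 2 was left out, leaving out 1 pachytene animal left 1846 to 2027 higher and 396 to 613 lower. A fit of all 12 nascent libraries in 4 stages with every animal as a fixed block called 0 genes between leptotene and pachytene, and 2442 higher and 986 lower without leptotene library 2. The same 4 stages in 1 fit without the block gave 3316 higher and 2588 lower, and 3675 and 3016 without leptotene library 2. Dropping the 5 structural RNA rows and the 5S rows before rescaling let 18709 genes pass the filter, of which 2608 were higher and 3059 lower, with the median gene at a log2 change of -0.34 in place of -0.01. The authors' 5S-corrected table, whose values are those of the uncorrected table times a constant per library and which holds 5 of the 8 libraries, gave 6358 higher and 469 lower of 11355 genes and a median gene of 1.33. List medians from that table are given beside those whose sign differs there, as they stand, without subtracting the 1.33 of its median gene.

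**Figure D1:**
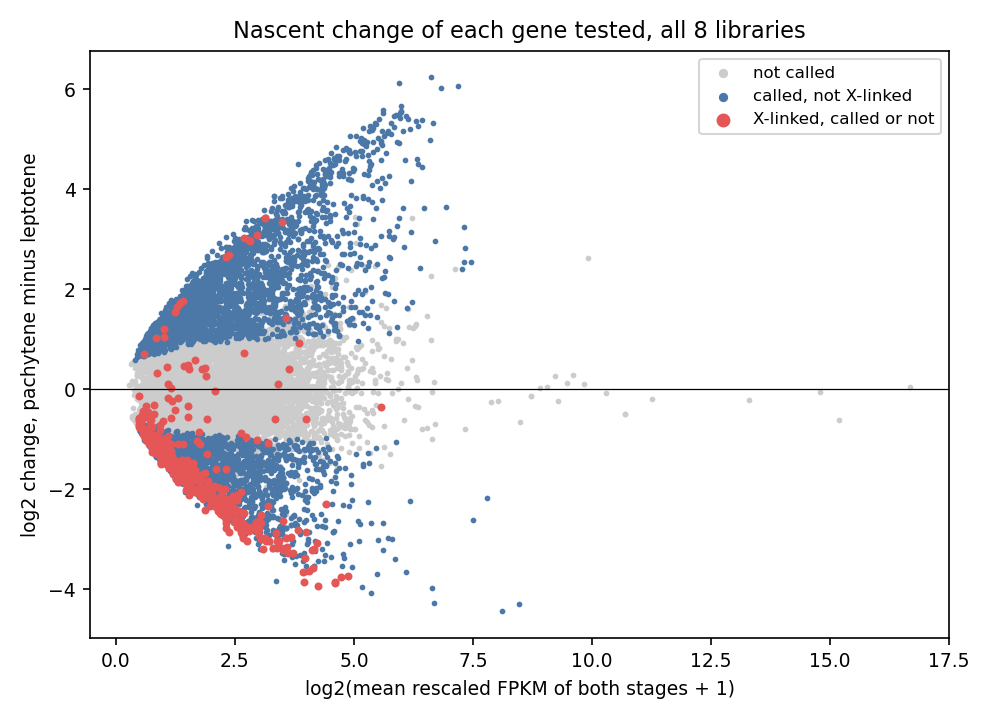
Each point is 1 of the 13360 genes tested, with its mean level on a log2 axis and its log2 change from leptotene to pachytene in all 8 libraries; grey genes were not called, blue genes were called, and red genes are X-linked, called or not. Rises reach further from 0 than falls, and the X-linked genes lie mostly below 0, with a median of -1.52.

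The 10 largest rises among named genes went from 0 to 2.64 in leptotene libraries 1, 3 and 4 to 29.9 to 219 in pachytene. Rsph1, a radial spoke protein of the sperm flagellum, had levels of 0, 91.4, 0 and 0.23 in leptotene libraries 1 to 4 and 109, 119, 91.2 and 85.1 in pachytene libraries 1 to 4. Leptotene library 2 lay inside the pachytene range and the other 3 leptotene libraries lay far below it. Its log2 change was 5.47 ± 0.90 (SE, adjusted p = 0.00576, limma) and 6.56 without leptotene library 2 (adjusted p = 0.000257). Spata4, a testis gene, was listed at 0 in leptotene libraries 1, 3 and 4, at 53.3 in library 2, and at 67.6 to 80.0 in pachytene, a log2 change of 5.25. Gk2, a testis glycerol kinase, had 0.76 to 1.87 in those 3 leptotene libraries, 91.3 in library 2 and 106 to 178 in pachytene. The others of the 10 were Csl, Morc2b, Eid3, Pabpc2, Cdc42ep3, Aym1 and Tdrd6, with log2 changes of 5.20 to 5.47. With library 2 left out, the changes of Spata4, Gk2, Csl, Morc2b, Eid3, Pabpc2, Cdc42ep3 and Aym1 were 6.21, 6.10, 6.24, 6.20, 6.30, 6.29, 6.15 and 5.93.

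Piwil1 and Tdrd6 lead the piRNA pathway list. Of 22 genes tested, 9 (40.9%) were higher and 1 (4.5%) lower, against 21.9% and 17.2% of all genes. The other 12 were not called, and the median log2 change was 1.15. Without leptotene library 2 the counts were 9 and 2. The shares of all genes are also the reference for the list counts that follow. Piwil1 (chr5:128702524-128755474), the Piwi protein that binds pachytene piRNAs, had 0.37, 49.98, 0.28 and 0.24 in leptotene libraries 1 to 4 and 96.1, 102, 18.7 and 97.1 in pachytene libraries 1 to 4. Pachytene library 3 was lower than leptotene library 2, so the stages overlapped, and they separated once library 2 was left out. The mean level rose from 8.57 ± 14.4 (SD, n = 3 animals) to 78.5 ± 29.8 (SD, n = 2 animals). The log2 change was 4.81 ± 0.85 (SE, adjusted p = 0.00652, limma). It comes from averages on the log2 scale and is not the ratio of those means. Without library 2 the leptotene mean was 0.30 ± 0.07 and the log2 change 5.67. Tdrd6 (chr17:43615335-43630299), a scaffold of the chromatoid body, had 1.32, 95.2, 0.66 and 0.59 in leptotene and 161, 103, 113 and 125 in pachytene. All pachytene libraries lay above all leptotene libraries, though leptotene library 2 came close, and the log2 change was 5.20 ± 0.93 (SE, adjusted p = 0.00665), or 6.09 without library 2.

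Of the other Tudor proteins, which hold Piwi complexes together, Tdrd5, Tdrd1, Tdrd12 and Tdrd7 rose with log2 changes of 3.13, 2.97, 2.10 and 1.25. Tdrd5 had 0.46, 11.3, 0.46 and 0.38 in leptotene and 13.6, 18.8, 14.9 and 21 in pachytene. Henmt1, the methyltransferase that protects the 3′ end of piRNAs, rose by 2.47, and the RNA helicase Ddx25 rose by 2.5. Among the members not called, Piwil2 had a log2 change of 0.77 (adjusted p = 0.263), Ddx4 one of 0.56, Mov10l1 one of 0.37 and Tdrkh one of -0.41. Btbd18, a transcription regulator of pachytene piRNA loci, moved the other way, from 31.1, 7.61, 16.3 and 22.6 in leptotene to 0.59, 1.73, 3.18 and 0.94 in pachytene. The stages did not overlap, and the log2 change was -2.96 (adjusted p = 0.0052).

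The list of meiotic transcription regulators split, with 9 of 27 tested higher, 13 lower and 5 not called. Its median was -1.15, and 1.85 in the 5S-corrected values. Mybl1 itself had 44.8, 38.2, 7.19 and 30.8 in leptotene and 33.4, 36.9, 33.1 and 50.2 in pachytene. The stages overlapped, leptotene library 3 was the low one, and the log2 change of 0.80 ± 0.68 (SE) did not pass (adjusted p = 0.371). Hsf5, a heat shock factor family member of spermatocytes, rose from 2.70, 46.2, 3.88 and 2.26 to 71.1, 99.6, 53.0 and 113, a log2 change of 3.78, or 4.39 without library 2. Tcfl5, a testis helix-loop-helix factor, had 6.22, 33.8, 6.59 and 4.57 in leptotene and 41.8 to 48.0 in pachytene, a log2 change of 2.43 (adjusted p = 0.00885). Kctd19, Rfx4, Rfx2, Ovol1, Tbpl1, Sox30 and Brdt also rose, by 3.59, 3.21, 2.95, 2.82, 2.51, 2.22 and 1.90 on the log2 scale, with Kctd19 at 4.30 without library 2. Kctd19 works with Zfp541 in meiotic chromatin; Rfx2 and Sox30 drive spermatid genes; Tbpl1 is a TBP relative; and Brdt is the testis bromodomain protein. Zfp541 missed the threshold over all 8 libraries (1.20, adjusted p = 0.0536) and passed without leptotene library 2. Among the 13 that fell were Taf7l and Taf4b, variant subunits of the TFIID complex, with log2 changes of -3.76 and -3.09, and the spermatogonial factors Dmrt1 and Sohlh2 with -2.88 and -2.44.

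**Figure D2:**
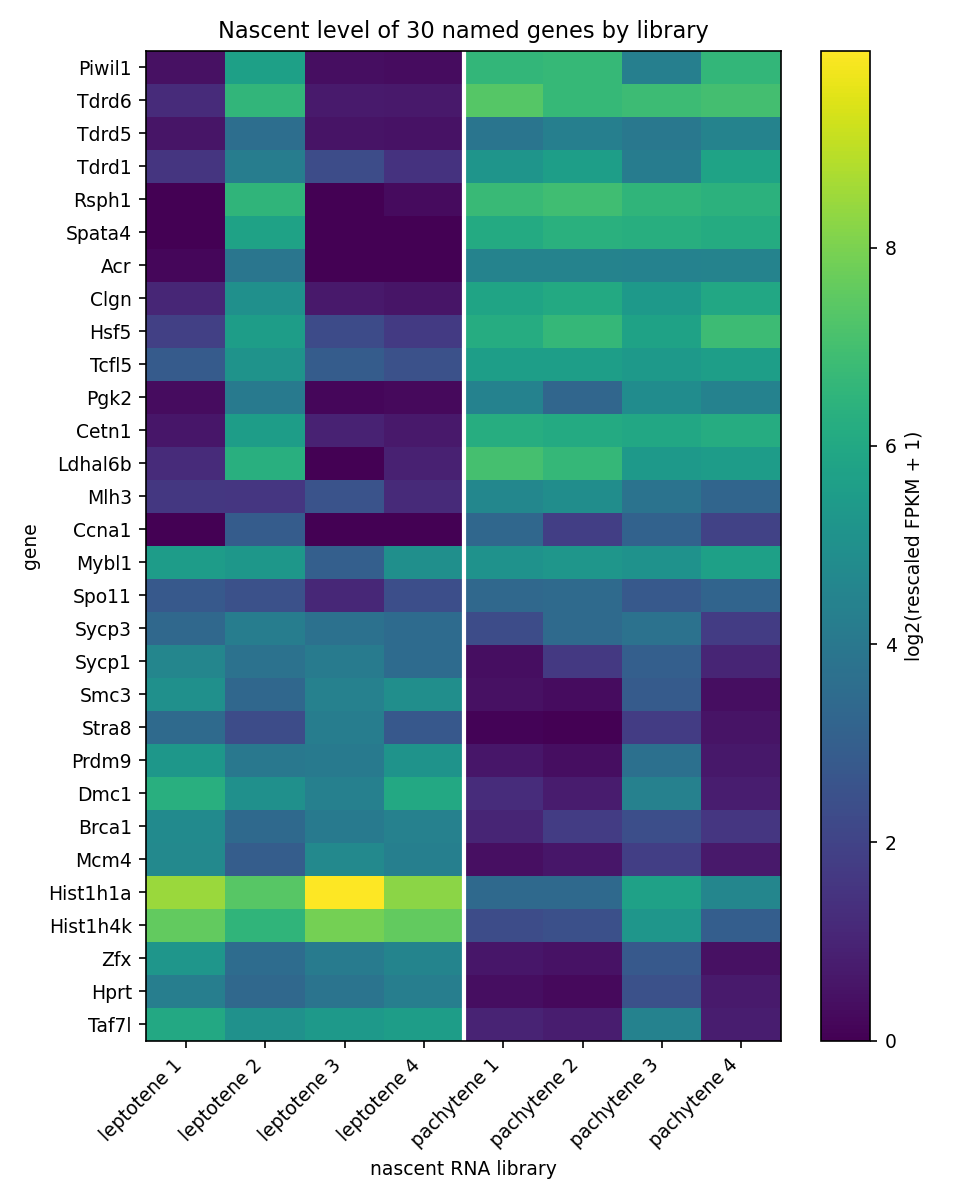
Colour gives log2(rescaled FPKM + 1) for 30 named genes in rows and the 8 nascent libraries in columns, leptotene to the left of the white line. Leptotene library 2 holds pachytene genes such as Tdrd6 at 95.2, and pachytene library 3 holds leptotene genes such as Dmc1 at 20.1.

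Of 35 flagellum genes tested, 33 were higher, 0 lower and 2 not called, with a median log2 change of 2.74, and 34 were higher without leptotene library 2. The other 7 members had not passed the filter on low values. Genes near 0 in leptotene pass that filter through the libraries where they are high. Counts of higher members on this list and on the acrosome and spermatid lists are therefore partly set by the filter. The same holds for the retrogene and glycolytic lists further on. Sept12, a septin of the annulus, rose from 0.34, 25.4, 0 and 0.17 to 80.4, 48.8, 52.3 and 31.3, a log2 change of 4.75, or 5.47 without library 2. Dnah8 and Dnah17, dynein heavy chains of the axoneme, rose by 3.70 and 3.21. Of 12 acrosome genes tested among 28 members, 11 were higher and 0 lower, with a median of 3.23. The other 16 were below the filter on low values, 5 of them at 0 in all 8 libraries. Acr, the protease acrosin, was listed at 0.13, 14.1, 0 and 0 in leptotene and at 21.3, 20.8, 20.7 and 20.9 in pachytene. Leptotene library 2 was the only leptotene library near the pachytene levels, and the log2 change was 3.77 (adjusted p = 0.0059), or 4.40 without library 2. Clgn, a chaperone needed for sperm surface proteins, and the sperm surface proteins Adam3 and Adam2 rose by 4.40, 3.79 and 3.69, or by 5.05, 4.46 and 4.30 without library 2. Of 24 genes of spermatid chromatin and late spermatids, 11 were tested, and 7 were higher and 0 lower, with a median of 0.94; the other 13 were below the filter, 5 of them at 0 throughout. The protamines Prm1 and Prm2 were low in pachytene, at 0 to 3.18 and 0.71 to 1.38, although both passed.

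Genes of meiotic entry and of DNA break formation took a smaller part in pachytene. Of 14 meiotic entry genes tested, 8 were lower and 0 higher, with a median of -1.34; in the 5S-corrected values 4 of 12 were lower and 3 higher. Stra8, the retinoic acid target that opens meiosis, had 10.1, 4.01, 18 and 5.78 in leptotene and 0.07, 0, 2.39 and 0.45 in pachytene. The stages did not overlap, and the log2 change was -2.70 (adjusted p = 0.00767). Its partner gene Gm4969, which encodes Meiosin, changed by -2.83, and Esco2, a cohesin acetyltransferase, by -3.23. Dazl, Meioc and Rbm46, RNA-binding regulators of germ cells, did not pass, with log2 changes of -0.79, -0.05 and 0.03.

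Of 28 genes of double-strand breaks and strand exchange tested, 13 were lower and 1 was higher, with a median of -1.22, and of 0.05 in the 5S-corrected values. Dmc1 (chr15:79561497-79605109), the meiotic recombinase, had 77.9, 31.1, 19.12 and 64.8 in leptotene and 1.42, 0.71, 20.1 and 0.72 in pachytene. Pachytene library 3 lay just above leptotene library 3, and the other 3 pachytene libraries lay far below all leptotene libraries. The mean level fell from 46.1 ± 24.0 (SD, n = 3 animals) to 5.73 ± 7.10 (SD, n = 2 animals). The log2 change, from averages on the log2 scale, was -3.53 ± 0.71 (SE, adjusted p = 0.00937, limma). Prdm9, the methyltransferase that places break hotspots, fell from 38.1, 15.1, 15.8 and 34.2 to 0.53, 0.30, 12 and 0.58, a log2 change of -3.28. Mei1, Mei4, Brip1 and Hells, which act in break formation, repair and hotspot opening, also fell, by 2.07, 1.65, 2.76 and 2.72 on the log2 scale. Spo11, the enzyme that cuts the DNA, went against the list's median without passing: it had 5.97, 4.54, 1.15 and 4.32 in leptotene and 9.38, 10.1, 5.90 and 8.21 in pachytene, a log2 change of 1.16 (adjusted p = 0.0985). The 1 gene called higher was Swi5, a partner of strand exchange, with 2.0. Tex15 was called lower over all 8 libraries (-2.69, adjusted p = 0.0404) and not without leptotene library 2.

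Of 13 crossover factors tested, 5 (38.5%) were lower against 17.2% of all genes, and 2 (15.4%) were higher against 21.9%. The median was -1.0, and 0.67 in the 5S-corrected values, where 3 of 12 were higher and 0 lower. Mlh3, the mismatch-repair protein that resolves crossovers, rose from 2.10, 1.99, 4.86 and 1.28 to 23.3, 28.9, 12.9 and 8.49, a log2 change of 2.36 (adjusted p = 0.00776). The stages did not overlap. Msh4 and Msh5, which stabilise recombination intermediates, changed by -1.0 and -1.67. Prr19, which localises with late crossover proteins, rose by 1.74. Of 17 genes of the synaptonemal complex, axis and cohesin tested, 10 were lower and 0 higher, with a median of -1.45; in the 5S-corrected values 2 of 16 were lower and 1 higher, with a median of -0.35. Sycp1, the transverse filament, had 22.9, 12.6, 16.7 and 10.1 in leptotene and 0.30, 2.13, 7.06 and 1.06 in pachytene, a log2 change of -2.41 (adjusted p = 0.00539), with no overlap. The meiotic cohesin genes Rad21l and Smc1b and the shared cohesin gene Smc3 fell by 2.97, 2.32 and 3.49 on the log2 scale. Sycp2, Sycp3, Syce1 and Hormad1 did not pass, with 0.28, -0.85, 0.35 and 0.02, and Sycp3 had 0.74 in the 5S-corrected values.

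The X chromosome stood apart from every autosome. Of 402 X-linked genes tested, 288 (71.6%) were lower and 14 (3.5%) higher, with a median of -1.52, against 15.6% lower, 22.0% higher and a median of 0.03 among 12351 autosomal genes. Of 393 tested without library 2, 307 were lower. In the 5S-corrected values, the X-linked median was -1.39, with 136 of 192 lower and 30 higher. No autosome had a median beyond -0.10 or 0.17. Of 10 Y-linked genes tested, 9 were lower, among them the ubiquitous Ddx3y, Eif2s3y, Uty and Usp9y with log2 changes of -2.51, -1.94, -0.99 and -1.96. X-linked rows held 1.15%, 0.598%, 0.994% and 0.862% of the summed level in leptotene libraries 1 to 4 and 0.151%, 0.122%, 0.361% and 0.139% in pachytene libraries 1 to 4. Every pachytene library was below every leptotene library, with pachytene library 3 the highest of its stage and leptotene library 2 the lowest of its own. The mean of animals was 0.911% ± 0.0724 (SD, n = 3) in leptotene and 0.193% ± 0.0888 (SD, n = 2) in pachytene. The two-sided exact permutation test gave p = 0.2, the smallest that this form of the test allows with 3 against 2 animals. The animal that gave both stages counts in both groups, and the test treats its values as independent. In protein-coding rows alone the X-linked means were 3.37% and 0.419%. Spermatogonia held 1.20% to 1.21% and the 1 preleptotene library 1.06%. The median X-linked level minus the median autosomal level, in log2 units, was 0.31, -0.34, 0.62 and 0.25 in leptotene and -1.60, -1.57, -0.67 and -1.67 in pachytene, a difference of -1.66 between the means of animals (exact permutation p = 0.2), and of -3.29 with a pseudocount of 0.1.

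**Figure D3:**
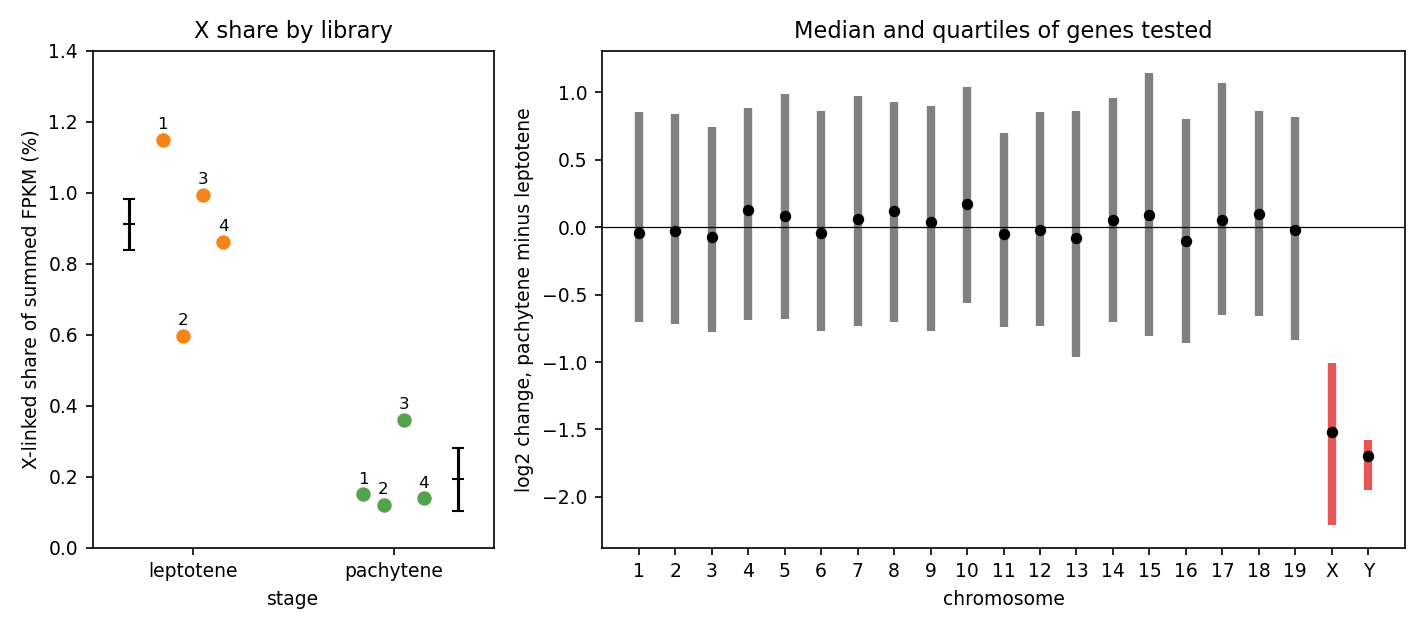
Left, the X-linked share of the summed level in percent for each numbered library, with the mean and SD over animals in black beside each stage; right, the median (point) and quartiles (bar) of the log2 change of genes tested on each chromosome. The shares fall from 0.598% to 1.15% in leptotene to 0.122% to 0.361% in pachytene, and the X and Y medians of -1.52 and -1.70 lie below those of all autosomes.

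Of 44 X-linked housekeeping genes tested among 56 members, 36 were lower and 0 higher, and 41 of 43 were lower without leptotene library 2. The other members were below the filter on low values. Genes near 0 in pachytene pass that filter through the leptotene libraries. These counts of lower genes, and those of all X-linked and Y-linked genes above, are therefore partly set by the filter. Hprt (chrX:52988137-53021659), a purine salvage enzyme, had 18.5, 9.37, 13.5 and 18.1 in leptotene and 0.28, 0.18, 4.54 and 0.66 in pachytene. The stages did not overlap, and the log2 change was -3.03 ± 0.39 (SE, adjusted p = 0.0052). Zfx, Hcfc1 and Usp9x changed by -3.26, -3.16 and -2.72. Pgk1, the X-linked phosphoglycerate kinase, was below the filter on low values, at 0.09 to 1.20 in leptotene and 0 to 0.21 in pachytene. Xist, the noncoding RNA of X inactivation, was low in both stages and did not pass (-1.0, adjusted p = 0.0692). The 14 X-linked genes that rose were Spin2e, Spin2f, Spin2g, Spin2d, Spin2-ps6 and 9 predicted genes. Spin2e had 0.19, 2.80, 0 and 0.03 in leptotene and 28.1, 7.38, 7.40 and 17.5 in pachytene, a log2 change of 3.43. The Spin2 genes are near-identical copies, so how the authors' counting divided reads among them is uncertain. These genes were named after their values were seen.

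Autosomal retrogenes, intronless copies that stand in for X-linked parents in meiosis, mostly rose: 6 of 11 tested were higher, 1 was lower, and the median was 2.23. Pgk2 (chr17:40207015-40208640), the testis copy of Pgk1, had 0.27, 16.5, 0.14 and 0.18 in leptotene and 20.4, 8.72, 28.3 and 20.2 in pachytene. Leptotene library 2 lay above pachytene library 2, and without it the stages did not overlap. The log2 change was 3.36 (adjusted p = 0.00819) and 3.99 without library 2. Cetn1, Tktl2, Pdha2, Naa11 and Rpl10l rose by 4.56, 3.44, 3.41, 2.32 and 2.23 on the log2 scale, with Cetn1 at 5.39 without library 2. Utp14b, the copy of the X-linked Utp14a, was the 1 that fell (-1.14). Of 15 glycolytic genes tested among 22 members, 11 were higher and 1 lower, with a median of 1.70. Among them were isozymes of testis or muscle, with Ldhal6b at 4.59, Pgam2 at 4.02, Ldhc at 3.65 and Eno4 at 2.66, and Pkm was the 1 that fell (-1.49). Without library 2 Ldhal6b, Pgam2 and Ldhc were at 5.43, 4.67 and 4.58. The broadly used Ldha rose as well, from 0.23, 22.5, 0.20 and 0.19 to 43.2, 12.8, 27.0 and 39.5, a log2 change of 3.87 (adjusted p = 0.00641), or 4.58 without library 2.

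Of 21 sex-body silencing factors tested, 4 (19.0%) were lower, near the 17.2% of all genes, and 0 higher, with a median of -0.27, and of 0.96 in the 5S-corrected values. The 4 were Scml2, Brca1, Chek1 and Topbp1, with -2.69, -2.48, -1.46 and -1.10, and Topbp1 had 0.24 in the 5S-corrected values. The signalling genes Atr, Mdc1 and H2afx did not pass. Mdc1, the adaptor that spreads the damage signal over the sex chromosomes, had 170, 113, 42.3 and 124 in leptotene and 85.9, 115, 92.1 and 108 in pachytene, and the stages overlapped. Of 30 DNA replication genes tested, 15 were lower and 1 higher, with a median of -1.05, and of 0.44 in the 5S-corrected values. Mcm4, a subunit of the replicative helicase, fell from 25.2, 6.78, 25.1 and 19.0 to 0.33, 0.51, 2.57 and 0.62, a log2 change of -3.40. Uhrf1, a partner of the maintenance DNA methyltransferase, was the 1 called higher (1.64). Of 20 cyclins and division kinases tested, 7 were higher and 6 lower, with a median of -0.86, and of 1.44 in the 5S-corrected values. Ccna1, the meiotic A-type cyclin, was listed at 0 in leptotene libraries 1, 3 and 4, at 6.52 in library 2, and at 9.01, 2.57, 7.82 and 2.90 in pachytene, a log2 change of 2.08. Cks2, Pkmyt1 and Aurka rose by 2.90, 2.05 and 2.04 on the log2 scale, and Ccna2 and Ccnb1, the mitotic cyclins, changed by -1.89 and -1.69.

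Replication-dependent histones gave the largest falls. Of 62 tested, 51 were lower and 5 higher, with a median of -2.48, and -0.89 in the 5S-corrected values. Hist1h1a (chr13:23763666-23764406), a linker histone, had 355, 166, 1012 and 303 in leptotene and 9.60, 9.75, 51.7 and 23.3 in pachytene. The stages did not overlap, and the log2 change was -4.43 ± 0.62 (SE, adjusted p = 0.00522). Hist1h4k, Hist1h1c, Hist1h4n and Hist1h2bm changed by -4.28, -4.08, -3.97 and -3.95. The 5 that rose were Hist2h2be, Hist3h2a, Hist2h2ac, Hist1h1t and Hist2h2ab, with 4.31, 3.36, 2.66, 2.42 and 2.24, and Hist2h2be at 5.05 without library 2. Hist1h1t, the testis linker histone, had 27.0, 67.9, 13.7 and 21.3 in leptotene and 115, 188, 78.2 and 167 in pachytene, and the stages did not overlap. Core histone genes are near-identical within a type, so single members are uncertain. The other 5 of the 10 largest falls were the X-linked Jade3, Usp26, Otud6a and Taf7l and the flap endonuclease Fen1, with log2 changes of -3.76 to -3.88.

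Most spermatogonial genes tested fell with the histones. Of 20 undifferentiated members 9 were tested and 8 were lower, and of 12 differentiating members 11 were tested and 7 were lower. The other members were below the filter on low values, so these counts are partly set by the filter. Summed over all members, the undifferentiated list overlapped between stages, at 44.05 to 66.64 in leptotene and 34.72 to 50.01 in pachytene. That sum includes Id4, the 1 member called higher. The differentiating list also overlapped, at 53.12 to 144.94 and 13.44 to 66.89. Sall4 and Zbtb16, transcription factors of stem cells, changed by -2.58 and -2.36. Summed spermatogonial markers stood at 25.4, 17.3, 60.7 and 17.1 in leptotene libraries 1 to 4, highest in library 3, and at 0.87, 1.54, 7.59 and 1.62 in pachytene; their part in these falls was not tested. Id4, an inhibitor of helix-loop-helix factors known from stem spermatogonia, went the other way, from 0.59, 6.04, 0.69 and 0.29 to 31.7, 33.3, 16.8 and 45.2, a log2 change of 4.0 (adjusted p = 0.0052), with no overlap.

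Lists of general expression machinery stayed near the middle of all genes. Of 69 ribosomal protein genes tested, 3 were higher and 3 lower, with a median of -0.03, and of 1.29 in the 5S-corrected values. Of 30 genes of RNA polymerase II and its elongation factors, 3 were higher and 6 lower, with a median of -0.34, and of 1.10 in the 5S-corrected values. Polr2a, the largest subunit, had 63.3, 51.9, 48.9 and 30.6 in leptotene and 53.6, 54.3, 54.6 and 60.9 in pachytene, and the stages overlapped. Tbp, the TATA-binding protein, rose from 1.33, 3.81, 0.96 and 0.95 to 7.38, 5.80, 4.63 and 6.57, a log2 change of 1.58 (adjusted p = 0.0136). Of 10 immediate-early and heat-shock genes tested, 7 were lower and 1 higher, with a median of -1.04, and of 0.45 in the 5S-corrected values. Of 13 noncoding RNAs tested, Neat1 and Miat (15.4%) were higher and Rmrp (7.7%) lower, against 21.9% and 17.2% of all genes. By annotated type, 189 of 401 lincRNA genes tested (47.1%) and 33.0% of antisense genes were higher, against 20.3% of protein-coding genes; without leptotene library 2 the shares were 54.1%, 36.5% and 24.4%. Whether the counting used strand is not given in the sources used here, so reads of antisense and overlapping genes cannot be assigned with certainty.

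Most list counts, with leptotene library 2 left out, moved by 1 gene or none. Of the regulators 10 were higher and 14 lower, of meiotic entry genes 0 and 8, of break and strand exchange genes 1 and 13, and of crossover factors 3 and 5. Of synaptonemal complex, axis and cohesin genes 0 were higher and 10 lower, and of sex-body factors 1 and 5. Of retrogenes 6 were higher and 1 lower, of glycolytic genes 12 and 2, of histones 5 and 51, of replication genes 1 and 16 of 29 tested, and of cyclins and division kinases 7 and 6. Of undifferentiated spermatogonial genes 1 was higher and 8 lower, and of differentiating ones 0 and 8. Of acrosome genes 11 were higher and 0 lower, and of late spermatid genes 7 and 0 of 10 tested. Of RNA polymerase II genes 3 were higher and 6 lower, of immediate-early and heat-shock genes 2 and 8, and of noncoding RNAs 2 and 1. The ribosomal proteins moved to 6 higher and 2 lower of 66 tested, and the X-linked housekeeping genes to 0 higher and 41 lower of 43. Of 10 Y-linked genes 9 were again lower.

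**Figure D4:**
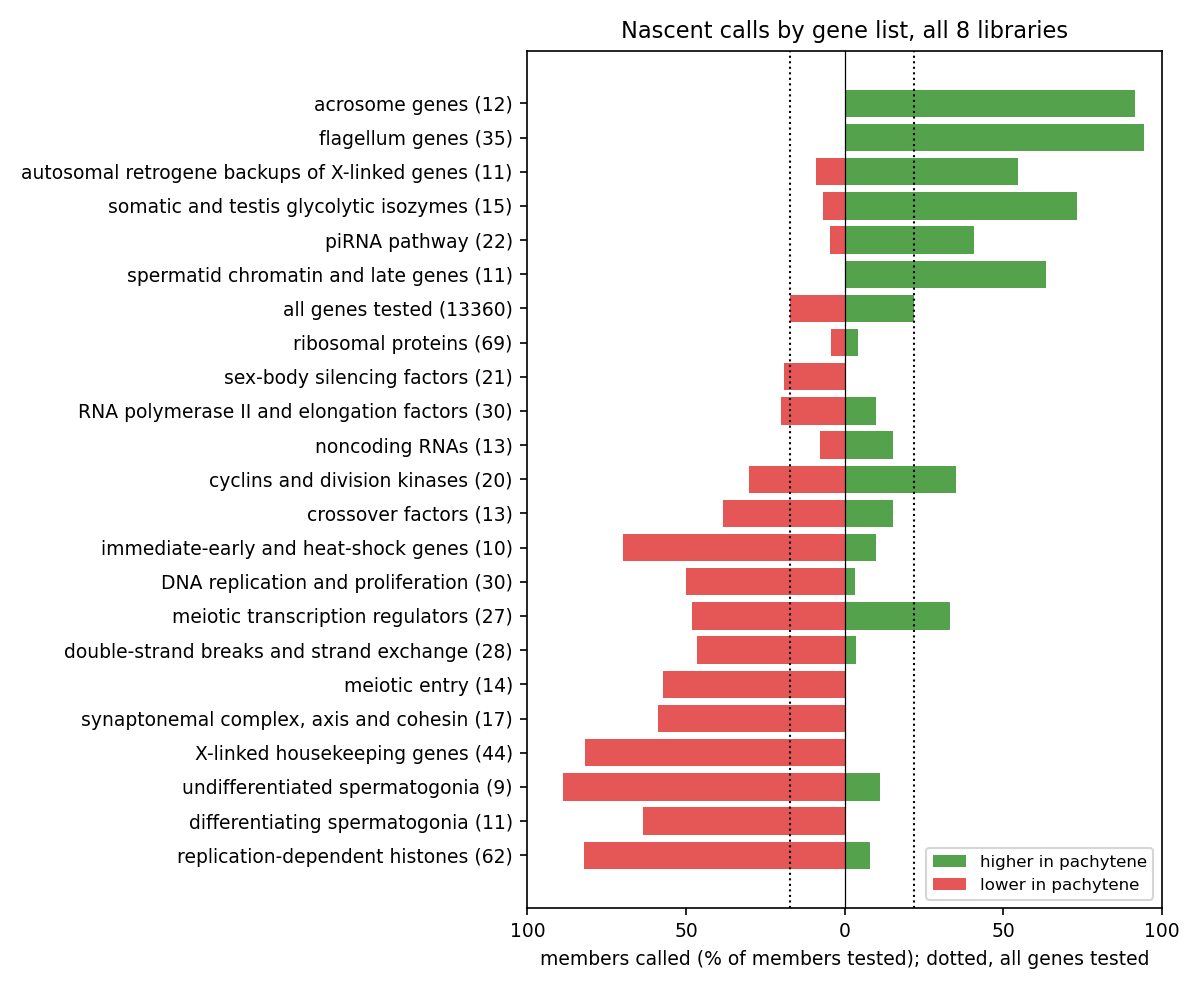
Bars give the percentage of tested members of each gene list called higher (right, green) or lower (left, red) in pachytene over all 8 libraries, with the number tested in brackets; dotted lines mark all genes tested. Flagellum and acrosome genes reach furthest to the right and undifferentiated spermatogonial genes, histones and X-linked housekeeping genes furthest to the left.

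The motif letters of the printed promoters were counted in the first RefSeq promoter of 8049 genes tested, on both strands and without regard to overlap with other motifs. TAACNG was found in 20.1% of tested genes' promoters and in 23.3% of all 32851 promoters of that length. Among genes called higher it was in 27.9%, among those higher by at least 4-fold in 31.9%, and among those higher by at least 16-fold in 47.4% (37 of 78). Among genes called lower it was in 17.1%, and among genes not called in 18.2%. By the calls without library 2 the shares were 27.4%, 31.4% and 41.1% for the rises, 17.2% for the falls and 17.9% for genes not called. Of the printed windows Piwil1 held 2 matches, Tdrd5 and Spata4 1 each, and Dmc1 none. They were chosen after the matches were seen and are not typical: among named genes with a promoter, 15 of 38 that rose and 10 of 36 that fell held a match. Tdrd1, Hsf5, Mlh3 and Pgk2 rose with 0 matches, and the fallen Sycp1 and Fen1 held 1 each. The E-box CACGTG was in 10.9% of tested promoters, 9.1% of those called higher and 12.3% of those called lower, and 7.2% of all promoters; Piwil1 held 2. The X-box core GTTGCC was in 13.8% of tested promoters, 18.4% of those called higher and 11.8% of those called lower, and 12.5% of all promoters. By the calls without library 2 the E-box was in 9.4% of rises and 12.3% of falls and GTTGCC in 17.5% and 11.9%. A match is a description of the letters, and binding was not measured.

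Nascent RNA and total RNA changes were then set side by side to ask where they differed. The total RNA libraries came from 4 other animals, with ribosomal RNA removed, and their values were rescaled in the same way within their own table. They were again compared as 3 leptotene against 2 pachytene animals. Total leptotene libraries 1 and 2 shared an animal. Another animal gave total leptotene library 3 as well as total pachytene libraries 2 and 4, and outside the block fit its values were treated as independent. In total RNA 5180 (31.2%) of 16602 genes tested were higher and 2592 (15.6%) lower, 46.8% in either direction, with a median of 0.42. The test of the difference between the nascent and total changes called 1 of 16942 genes (0.0059%) over all libraries, Rnf7, and 2023 had an unadjusted p below 0.05. The total library labelled leptotene 2 also held pachytene markers, at 1870 against 46.1 to 85.1 in the other leptotene total libraries. Without leptotene library 2 of both assays, 125 genes (0.746%) had a nascent change above and 1104 (6.59%) below the total change, 7.34% in all, with a median difference of -0.46. Centring each library on its median gene left 207 above and 276 below. With leptotene library 2 kept but the animal of total leptotene libraries 1 and 2 left out, 66 were above and 367 below. With every animal as a fixed block over all 24 libraries, 0 genes were called.

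Rnf7, a RING subunit of ubiquitin ligases, had nascent levels of 11.3, 25.7, 14.2 and 8.82 in leptotene and 23.2, 25.5, 23.6 and 26.7 in pachytene. In total RNA it had 20.1, 71.1, 22.3 and 26.5 in leptotene and 0.23, 0.29, 0.34 and 0.25 in pachytene. Total levels did not overlap and were lower in pachytene, nascent levels overlapped only through leptotene library 2, and the difference between the changes was 5.29 without library 2 (adjusted p = 0.00221). Cdc42ep4, an effector of the GTPase Cdc42, rose in nascent RNA by 4.07 without library 2 and had a total change of -0.52. In total RNA it stood at 89.1 in the left-out leptotene library 2, at 4.63 to 6.99 in the other leptotene libraries and at 3.28 to 4.07 in pachytene, so the left-out library was above both stages. Usp2, a deubiquitinase, rose in nascent RNA by 4.70 against a total change of 0.84, with 80.5 in total leptotene library 2 against 3.68 to 11.0 in pachytene. In the opposite direction, Morn5 went from 0 in leptotene libraries 1, 3 and 4 to 2.26 to 11.9 in nascent RNA and, in total RNA, from 0 to 0.88 in those libraries to 106 to 148. Its nascent change of 2.70 was below its total change of 6.63 (adjusted p of the difference 0.0033). Rundc3b fell in nascent RNA by 2.97 on the log2 scale and had a total change of 1.0 (adjusted p of the difference 0.0033). Ankrd49 likewise fell by 2.68 against 1.21. For Piwil1, Tdrd6, Dmc1 and Hprt, the differences of 0.15, 0.04, 0.53 and 1.14 did not pass (adjusted p = 0.892, 0.97, 0.8 and 0.239).

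**Figure D5:**
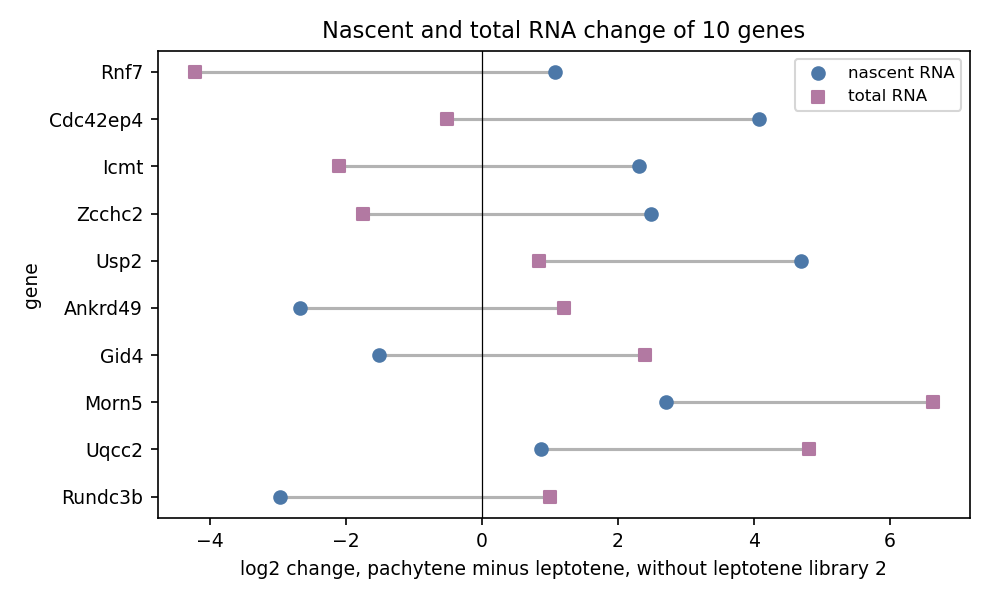
Circles give the nascent and squares the total RNA log2 change from leptotene to pachytene, without leptotene library 2 of both assays, for the 5 genes with the largest difference in each direction. Rnf7 lies at 1.07 in nascent and -4.22 in total RNA, and Morn5 at 2.70 and 6.63.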

How the data were processed

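Per the labels, testis cells were sorted by DNA content, nascent RNA was captured by its 5-ethynyl uridine, and libraries were made with a directional kit, with ribosomal RNA removed from total RNA libraries only. Per the submitters' processing notes, the authors used STAR 2.5.2a, StringTie (version not stated) and mm10. The authors deposited FPKM values per gene for both assays and a 5S-corrected signal table, used here as an alternative only. From these, spike-in rows (5.01% to 76.5% of summed FPKM) were dropped and each library was rescaled to a sum of 274008 (nascent) or 323271 (total). The 5S-corrected table holds 5 of the 8 libraries and was used as deposited.

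Genes at 1 or more in at least 2 of the libraries compared were tested on log2(value + 1) with limma 3.58.1 in R 4.3.3 (trend, two-sided, Benjamini-Hochberg over all genes, threshold 0.05), after averaging libraries of an animal and stage on the log2 scale. A fold change on this scale understates low genes. Spreads are over animals. Mean levels were taken on the unlogged scale, so their ratio differs from the log2 change. The difference of nascent and total changes was an interaction in the same model. Shares were tested with exact permutation tests (scipy 1.17.1). Simulated data with known changes were used to check the fit. Of the labels' replicate numbers none pairs animals between stages. In each assay 1 animal gave both stages, and outside the block fits its values were treated as independent. In the block fits every animal was a level, over the 12 nascent libraries of 4 stages or all 24 libraries, where animals also link stages through spermatogonia and preleptotene libraries.

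Depth is not stated in the tables. Only 42.4% to 52.8% of low values lay within 0.05 of a whole number of fragments, so depth is only roughly known and no count test was run; a level of 1 over 1500 bases would rest on about 7.7 to 15.0 fragments. Of 52323 rows, 47629 (91.0%) matched a GENCODE M21 gene by symbol.

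Named genes are the 10 largest rises and falls with no overlap of stages once leptotene library 2 is left out and a mean of at least 5 in the higher stage, up to 4 called members of each of 26 lists (the 2 of highest mean where fewer than 2 were called), the 5 largest differences between assays in each direction, and 16 genes always given; predicted genes, small RNAs and merged symbols are left out. Genes named beyond that rule were chosen after their values were seen. The members and lists were chosen with earlier results of these data known.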

Additional observations from a re-analysis of the deposited data

Results flagged for a closer look

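In 65 of 242 groups of 4 libraries, 1 library lay apart by Dixon's 95% criterion. The groups were the named genes and the X-linked measures in the same 8 libraries. Many of these genes were named for large changes, so the groups are not independent and the count has no chance rate to be set against. Leptotene library 2 lay apart 32 times, each time above the other leptotene libraries. Its levels were Rsph1 at 91.4, Csl at 51, Morc2b at 60.3, Eid3 at 100, Pabpc2 at 94.2, Aym1 at 20.5, Gk2 at 91.3 and Spata4 at 53.3. It also had Tdrd6 at 95.2, Piwil1 at 50, Tdrd5 at 11.3, Hsf5 at 46.2, Kctd19 at 25.7, Cetn1 at 46, Pgk2 at 16.5 and Pgam2 at 60.0. Further levels in it were Ldha at 22.5, Ldhc at 72.5, Hist2h2be at 21.5, Cks2 at 31.9, Ccna1 at 6.52, Id4 at 6.04, Clgn at 31.3 and Adam3 at 16.3. The rest were Acr at 14.1, Adam2 at 11.6, Sept12 at 25.4, Actl7b at 12.2, Tnp2 at 0.54, Miat at 0.22, Tcfl5 at 33.8 and Morn5 at 2.46.

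Pachytene library 3 lay apart 30 times. Its X-linked share was 0.361% and its median X-linked minus autosomal level was -0.67, both above the other pachytene libraries. It was below them for Aym1 at 29.9, Piwil1 at 18.7 and Tcfl5 at 41.8. It was above them for Hist1h1c at 6.57, Jade3 at 14.1, Usp26 at 12.6, Fen1 at 1.63, Taf7l at 20.5, Prdm9 at 12, Gm4969 at 6.82 and Dmc1 at 20.1. The same held for Rad51ap2 at 15.2, Brip1 at 2.91, Smc3 at 6.32, Rad21l at 4.27, Scml2 at 4.44, Zfx at 5.95, Hcfc1 at 5.87 and Usp9x at 4.91. It was also above them for Rrm2 at 9.7, Ccnb3 at 13.8, Sall4 at 2.52, Prss50 at 8.86, Tnp2 at 5.16, Taf1 at 1.63, Btg2 at 0.673, Pgk1 at 0.209 and Xist at 1.29.

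The remaining groups were Sall4 in leptotene library 1 at 13.6, Dkkl1 in pachytene library 4 at 0.401 and Aard in pachytene library 1 at 0.467.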

How the results depend on the processing

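Over all 8 libraries, leaving out 1 library gave 0 to 3433 genes higher and 0 to 3036 lower; leaving out either pachytene animal gave 0 in both directions, as did every animal as a fixed replicate block over the 12 nascent libraries of 4 stages. Without leptotene library 2, leaving out a library or animal gave 1846 to 3942 higher and 396 to 3823 lower, with 2027 and 613 without the pachytene animal of libraries 1 and 3, 1846 and 396 without that of libraries 2 and 4, and 986 lower with the replicate block. With no filter on low values 1124 genes were lower, and 1791 without leptotene library 2. The 5S-corrected table gave 6358 higher and 469 lower, and its 5 libraries uncorrected 3830 lower. Dropping the structural and 5S RNA rows, an alternative chosen after seeing the data, gave 4313 lower without leptotene library 2. For the nascent minus total change, leaving out leptotene library 2 of both assays gave 125 above and 1104 below, median centring with it 207 and 276, and the replicate block 0. Leaving out single animals gave 0 to 66 above and 0 to 367 below: 0 above without nascent leptotene library 3, either nascent pachytene animal or the total pachytene animal of libraries 1 and 3; 2 above and 4 below without that of libraries 2 and 4; 2 below without that of libraries 1 and 3; and 1 below without total leptotene library 4 or the nascent pachytene animal of libraries 2 and 4. The X-linked share differed by -0.811 to -0.625 percentage points and the X-linked minus autosomal median by -1.90 to -1.43 when 1 library was left out. The cause of these shifts was not tested.

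Of 3210 recomputed values for 128 single-gene results, 2614 stayed on their side, 531 lost the call, 55 gained it and 10 reversed. In the 5S-corrected table Aard reversed to 0.62, Fdx1 to 0.65, Sycp3 to 0.74, Tagln to 0.28 and Topbp1 to 0.24. With the replicate block Fdx1 reversed to 0.54, Gid4 to 0.20 and Tagln to 0.36. Fdx1 had 0.14 without the pachytene animal of libraries 1 and 3, and -0.24 to 0.025 when 1 library was left out. The number of animals and the unstated depth limit what low genes can show.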
